A study of Mus musculus with 15 samples.

Results

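Receptors for chemokines help decide where a maturing thymocyte goes, and 7 of their genes, Ccr9, Ccr4, Ccr8, Ccr2, Cxcr3, Cxcr4 and Cxcr6, were followed here across 5 groups of sorted mature mouse thymocytes. The members were taken by symbol from the deposited table of counts, which lists 53762 genes. All 7 were found, and all 7 were among the 16550 genes that passed the filter on low counts. RNA had been sequenced from 15 libraries, 3 per group, of thymocytes from mixed bone marrow chimeras, all labelled C57BL/6. All groups passed the same gate of mature cells, with high T cell receptor beta chain and little CD24, CD44 or CD69 on the surface.

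Thpok-RKF+ CD4+CD8+ cells, Thpok-RKF- CD4+CD8+ cells and Thpok-RKF- CD8 single-positive (SP) cells were CD45.2+ and came from marrow of Thpokfl/fl Runx3fl/dYFP Cd4-Cre+ donors that carried or lacked Thpok-RKF. The labels do not explain Thpok-RKF. Cd4-Cre acts in developing T cells, so the floxed alleles are targets there, and the labels give no part of these alleles as a check of deletion. The mutant groups came from irradiated B2m-/- hosts, which lack a chain of MHC class I, so the study's title calls these cells MHC class II restricted. Wild-type (WT) CD4 SP cells, CD45.1+CD45.2+ competitors, also came from B2m-/- hosts. WT CD8 SP cells, likewise CD45.1+CD45.2+, came by label from I-Ab-/- mice, which lack a chain of MHC class II. Host and lineage therefore cannot be told apart between the WT groups. Genotype and host differ together between Thpok-RKF- CD8 SP and WT CD8 SP cells, and cannot be told apart there. Between CD4+CD8+ mutant cells and WT CD8 SP cells the gate differs as well. Mutant groups and WT CD4 SP cells share the kind of host, but differ in genotype and gate together. Whether the 3 replicates of a group were separate animals is not in the labels. The p-values therefore describe the spread among these samples alone, and that spread may be technical.

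Chemokine receptors are G protein-coupled receptors that read gradients of small secreted ligands and steer cell movement and adhesion. In the thymus they guide immigrant progenitors and double-positive cells through cortex and medulla, and they are exchanged as cells mature for receptors of the periphery. CCR9 binds CCL25 from thymic epithelium and small intestine, CXCR4 binds CXCL12, CCR4 binds CCL17 and CCL22, CCR8 binds CCL1 and, in the mouse, CCL8, CXCR6 binds CXCL16, CXCR3 binds CXCL9, CXCL10 and CXCL11, and CCR2 binds CCL2. Thpok, encoded by Zbtb7b, directs the helper lineage, and Runx3 directs the cytotoxic lineage.

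Each library held 37311823 to 48607260 counts in genes. Zbtb7b, the gene of Thpok, stood at 768 to 823 CPM (counts scaled to library size, with TMM factors) in Thpok-RKF+ CD4+CD8+ libraries, 1.67 to 2.95 in Thpok-RKF- CD4+CD8+, 1.92 to 2.51 in Thpok-RKF- CD8 SP, 27.4 to 79.2 in WT CD4 SP libraries and 0.0933 to 0.376 in those of WT CD8 SP cells. Runx3 averaged 305 ± 49.1, 279 ± 14.7, 267 ± 34.4, 28.8 ± 4.95 and 206 ± 13.2 CPM in these groups in the same order (SD, n = 3 each). Both counts cover whole genes and do not check the floxed parts. Whether reads from Thpok-RKF are counted under Zbtb7b is not stated, so its level in Thpok-RKF+ libraries cannot be divided between the gene's own RNA and that of Thpok-RKF. Of the sort markers, Cd8a ranged between 2.13 and 7.68 CPM in WT CD4 SP libraries and was 748 CPM or more in each of the other 12, and Cd4 was at 17.4 to 41.5 CPM in Thpok-RKF- CD8 SP libraries, where the label gives a CD4- gate, and at most 3.86 CPM in WT CD8 SP libraries. In the other 3 groups Cd4 was 214 CPM or more in each library. Libraries numbered 1 differed from the others in some genes. Jun, an immediate early gene singled out after its values were seen, had its highest level there in 5 of 5 groups. The summed level of the 10 genes of the dissociation stress list, which holds Jun, did not follow it: replicate 1 was the highest of its group in both Thpok-RKF- groups, lay between the others in WT CD4 SP and was the lowest in Thpok-RKF+ CD4+CD8+ (1052 CPM, with 1644 and 1498 in replicates 2 and 3) and WT CD8 SP libraries (817, with 982 and 1008). Summed CPM of the 3 gate genes, Cd44, Cd24a and Cd69, was highest in replicate 1 of every group. In replicates 1, 2 and 3 it was 252, 129 and 125 in WT CD4 SP libraries. In Thpok-RKF+ CD4+CD8+ libraries it was 255, 165 and 154. The list of 12 immature double-positive genes, which also holds Cd24a and Cd69, was highest in replicate 1 except in Thpok-RKF- CD8 SP libraries (641, 603 and 642). The cause was not tested. The share of reads outside genes reached 11.2% in Thpok-RKF+ replicate 1. Results for the receptors that depend on these libraries are in part given with and without them.

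To show the start regions of the receptors whose levels separated the groups most, RefSeq promoter sequence (build GRCm38.p6, 250 bases before to 50 after the start, printed on the gene's strand) is given for Cxcr6, Ccr9 and Ccr8, all on chromosome 9. Capitals mark matches on either strand to TGTGGT, a core bound by RUNX factors, or to AGATAA or TGATAA, a core bound by GATA factors.
Cxcr6: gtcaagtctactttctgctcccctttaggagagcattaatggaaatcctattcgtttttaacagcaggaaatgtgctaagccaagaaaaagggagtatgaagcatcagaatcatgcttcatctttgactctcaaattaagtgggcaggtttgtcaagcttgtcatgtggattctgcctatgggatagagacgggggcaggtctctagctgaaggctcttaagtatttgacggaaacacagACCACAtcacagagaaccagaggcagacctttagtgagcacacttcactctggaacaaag
Ccr9: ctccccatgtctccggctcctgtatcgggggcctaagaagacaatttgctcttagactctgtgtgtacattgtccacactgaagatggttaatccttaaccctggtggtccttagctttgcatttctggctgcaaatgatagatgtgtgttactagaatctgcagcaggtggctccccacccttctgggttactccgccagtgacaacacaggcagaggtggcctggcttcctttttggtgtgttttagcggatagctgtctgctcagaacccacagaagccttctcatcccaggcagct
Ccr8: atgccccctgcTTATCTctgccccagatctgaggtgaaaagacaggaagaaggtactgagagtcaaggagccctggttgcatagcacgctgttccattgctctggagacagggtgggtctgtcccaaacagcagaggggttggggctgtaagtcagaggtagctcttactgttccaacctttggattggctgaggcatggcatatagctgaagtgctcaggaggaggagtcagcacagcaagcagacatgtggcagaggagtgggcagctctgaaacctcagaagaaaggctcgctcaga
These lie at chr9:123806227-123806526 (Cxcr6, plus strand), chr9:123766961-123767260 (Ccr9, plus strand) and chr9:120091883-120092182 (Ccr8, plus strand). The RUNX core occurred once in the Cxcr6 window, its first base 10 bases before the start, and in 16.8% of 32851 mouse promoters of the same length. The GATA core occurred once in the Ccr8 window, 239 bases before the start, and in 18.6% of promoters. Other forms of these cores were not searched. The Ccr9, Ccr4 and Cxcr4 windows held none of the strings searched, the Cxcr3 window held 2 RUNX cores, and the Ccr2 window held 1 GATA core. These matches describe letters in a window and are no evidence of binding.

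Each gene was compared with edgeR's quasi-likelihood test over all 16550 genes, with Benjamini-Hochberg adjustment and a threshold of 0.05, and the share of all genes passing is given beside each count of receptors. CD4+CD8+ cells with Thpok-RKF against those without it, which differ by label in this alone, gave 0 of 7 receptors, where 0.961% of all genes passed (0.586% higher and 0.375% lower). At an unadjusted p below 0.05 there were 3, and DESeq2 called 2 and limma 1. Without Thpok-RKF+ CD4+CD8+ replicate 1 the genes passing in this comparison numbered 1673 in place of 159, and 1 receptor passed, and without all libraries numbered 1 they numbered 1741, with 3 receptors, Ccr9, Cxcr3 and Cxcr4. Thpok-RKF- CD4+CD8+ against Thpok-RKF- CD8 SP cells gave 1 of 7 (2.44% of all genes), and Thpok-RKF+ CD4+CD8+ against Thpok-RKF- CD8 SP cells 2 of 7 (5.52%). Thpok-RKF- CD8 SP cells differed in 3 receptors from WT CD8 SP cells (18.4% of all genes; 2 receptors higher against 7.78% of genes, and 1 lower against 10.6%) and in 3 from WT CD4 SP cells (17.7%). Thpok-RKF- CD4+CD8+ cells differed in 3 receptors from WT CD4 SP cells (17.6%) and in 3 from WT CD8 SP cells (12.1%). Thpok-RKF+ CD4+CD8+ cells differed in 2 from WT CD4 SP cells (7.26%) and in 2 from WT CD8 SP cells (11.1%). WT CD4 SP against WT CD8 SP cells gave 3 of 7 (18.0%; 1 receptor higher against 7.72% of genes, and 2 lower against 10.3%). By gene, Ccr9 and Ccr8 passed in 7 of these 10 comparisons, Cxcr6 in 5, Ccr4 in 2 and Ccr2 in 1. Cxcr3 and Cxcr4 passed in 0, but did so in some comparisons under other settings, given with each gene. The comparisons share libraries and are not independent.

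**Figure D1:**
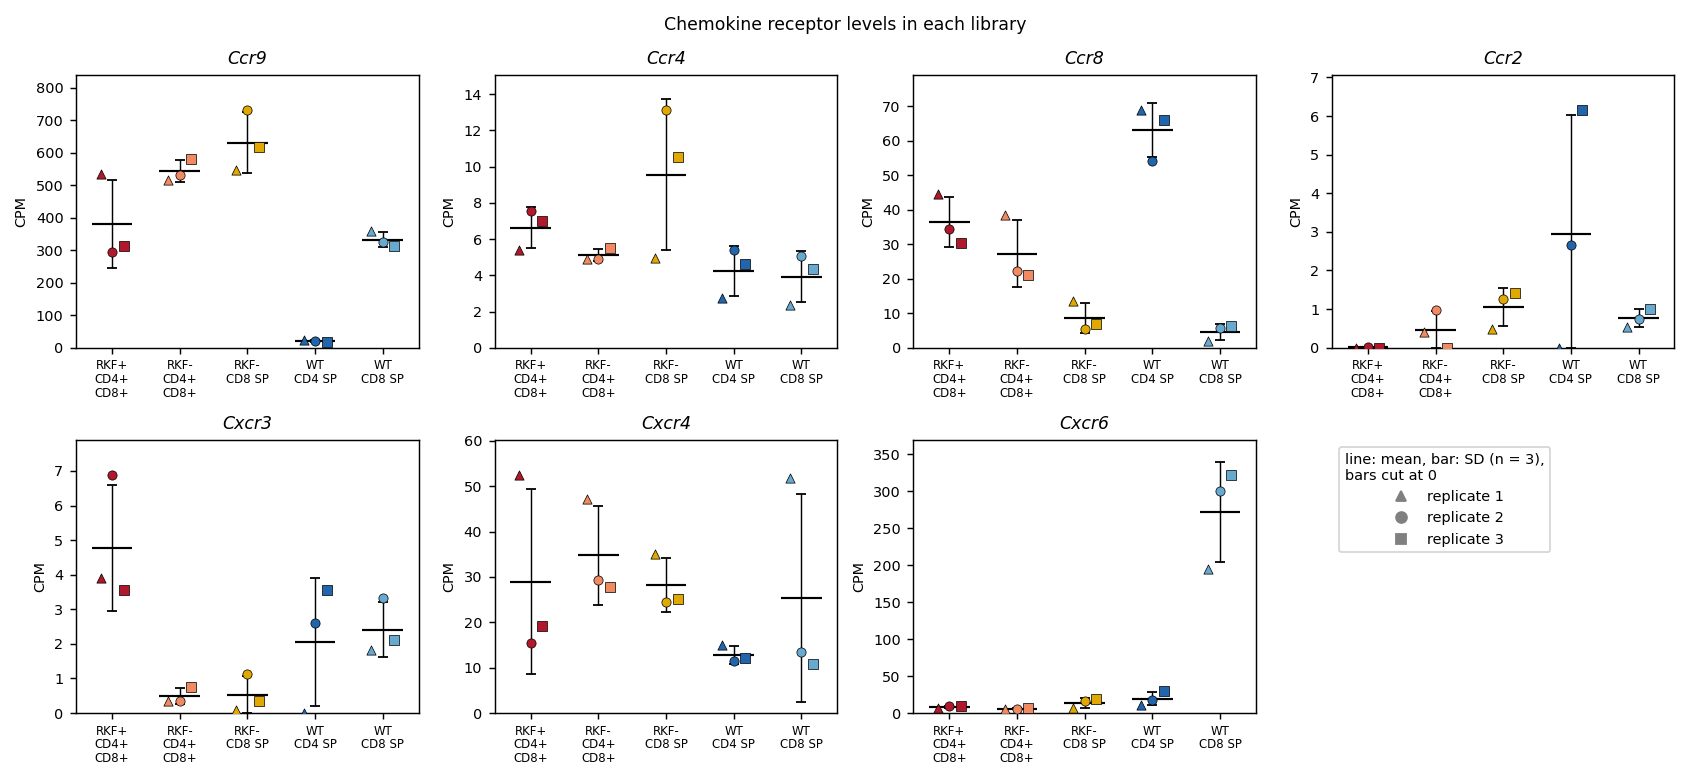
Level of each receptor gene in each of the 15 libraries, in CPM on a linear axis from 0 with its own scale per gene, the 5 groups side by side and the replicates marked by shape. Lines are means and bars SD of 3 libraries. Ccr9 is low in WT CD4 SP libraries (18.7 to 24.1 CPM) and Cxcr6 is high in WT CD8 SP libraries (194 to 322 CPM), while Cxcr4 is highest in the library numbered 1 in each group.

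Ccr9, the receptor for CCL25 that holds cells in the thymus and sends CD8 T cells and their kin to the small intestine, was high in every mutant group and in WT CD8 SP cells and low in WT CD4 SP cells. Its levels were 535, 294 and 313 CPM in Thpok-RKF+ CD4+CD8+ libraries, 517, 530.1 and 581 in Thpok-RKF- CD4+CD8+, 545, 731 and 617 in Thpok-RKF- CD8 SP, 24.1, 20.6 and 18.7 in WT CD4 SP, and 358, 326 and 312 in WT CD8 SP libraries. The 9 mutant libraries all lay above the WT CD4 SP libraries, and the 6 Thpok-RKF- libraries also lay above the WT CD8 SP libraries.

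Between WT groups Ccr9 averaged 21.1 ± 2.72 CPM in CD4 SP cells and 332 ± 23.4 CPM in CD8 SP cells (SD, n = 3 each), with a log2 fold change of -3.97 ± 0.21 (SE; edgeR quasi-likelihood test, adjusted p = 2.05e-08). Against WT CD4 SP cells it rose by 4.90 ± 0.22 in Thpok-RKF- CD8 SP (adjusted p = 3.58e-09), by 4.68 ± 0.22 in Thpok-RKF- CD4+CD8+ (adjusted p = 5.87e-09) and by 4.17 ± 0.22 in Thpok-RKF+ CD4+CD8+ cells (adjusted p = 1.06e-08). These 3 rises lay 18.0- to 29.9-fold above WT CD4 SP cells. Compared with WT CD8 SP cells it rose by 0.93 ± 0.19 in Thpok-RKF- CD8 SP cells, that is 1.90-fold (adjusted p = 0.0031), and by 0.71 ± 0.19 in Thpok-RKF- CD4+CD8+ cells (adjusted p = 0.0247). The second of these was lost without WT CD8 SP replicate 2 or 3 (adjusted p = 0.087 and 0.0989) and without Thpok-RKF- CD4+CD8+ replicate 2 or 3 (0.0586 and 0.0842).

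With Thpok-RKF, Ccr9 averaged 381 ± 134 CPM in CD4+CD8+ cells, against 542 ± 33.8 CPM in Thpok-RKF- CD4+CD8+ cells, and the difference of -0.51 ± 0.19 did not pass (adjusted p = 0.236). Thpok-RKF+ replicate 1 lay among the Thpok-RKF- libraries and replicates 2 and 3 lay below all of them. Without that library the log2 fold change was -0.84 (adjusted p = 0.00366), and without all 5 libraries numbered 1 it was -0.87 (adjusted p = 0.00294). Against Thpok-RKF- CD8 SP cells, at 631 ± 93.5 CPM, it fell by 0.73 ± 0.19 on the log2 scale in Thpok-RKF+ CD4+CD8+ cells (adjusted p = 0.0373). That call was lost with the compared groups alone in the fit (0.184), and without Thpok-RKF- CD8 SP replicate 2 or 3 (0.17 and 0.0974) or Thpok-RKF+ replicate 2 or 3 (0.168 and 0.173). Ordered by mean, Thpok-RKF- CD8 SP cells stood first, then CD4+CD8+ cells without and with Thpok-RKF, then WT CD8 SP and last WT CD4 SP cells. Of the 4 steps between neighbours in that order, the last passed the test. Exons of Ccr9 overlap other annotated genes over 21.5% of their bases (GRCm38 annotation), in part on the opposite strand, and the strand setting of the counting is not given, so a share of its reads is uncertain.

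Cxcr6, the receptor for CXCL16 found on cytotoxic, NKT and tissue-resident T cells, was high in WT CD8 SP cells and low in all other groups, the mutant CD8 SP cells included. Levels of 6.77, 9.50 and 9.19 CPM were measured in Thpok-RKF+ CD4+CD8+ libraries, 5.47, 5.43 and 6.62 in Thpok-RKF- CD4+CD8+, 6.18, 16.5 and 18.3 in Thpok-RKF- CD8 SP, 11.2, 18.2 and 29.2 in WT CD4 SP, and 194, 300.2 and 322 in WT CD8 SP libraries. The 3 WT CD8 SP libraries lay above all other 12, with no overlap.

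Against WT CD8 SP cells, at 272 ± 68.1 CPM, Cxcr6 fell in every mutant group, with log2 fold changes of -4.31 ± 0.41 in Thpok-RKF- CD8 SP cells (19.9-fold; adjusted p = 4.11e-06), -5.54 ± 0.44 in Thpok-RKF- CD4+CD8+ (46.6-fold; adjusted p = 1.37e-06) and -5.00 ± 0.43 in Thpok-RKF+ CD4+CD8+ cells (32.0-fold; adjusted p = 2.94e-06). In WT CD4 SP cells, at 19.5 ± 9.09 CPM, it fell by 3.80 ± 0.40 relative to WT CD8 SP cells (adjusted p = 1.45e-05). It also fell by 1.74 ± 0.38 in Thpok-RKF- CD4+CD8+ relative to WT CD4 SP cells (adjusted p = 0.00747). In Thpok-RKF- CD8 SP cells relative to WT CD4 SP cells its difference was -0.51 ± 0.37 and did not pass (adjusted p = 0.37). So Ccr9 and Cxcr6, both higher in WT CD8 SP than in WT CD4 SP cells, went opposite ways in Thpok-RKF- CD8 SP cells relative to WT CD8 SP cells, Ccr9 higher and Cxcr6 lower.

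Within the mutants Cxcr6 averaged 5.84 ± 0.675 CPM in Thpok-RKF- CD4+CD8+ cells and 13.7 ± 6.56 CPM in Thpok-RKF- CD8 SP cells, and the log2 difference of -1.23 ± 0.38 did not pass (adjusted p = 0.137). It passed without the libraries numbered 1 (-1.52, adjusted p = 0.00503), without Thpok-RKF- CD8 SP replicate 1 (-1.58, 0.0176), with no filter on low counts (0.00239), with a term for the libraries numbered 1 (0.0229) and in DESeq2 (0.0144). In Thpok-RKF+ CD4+CD8+ cells it was -1.20 ± 0.37 relative to WT CD4 SP cells (adjusted p = 0.0679), and passed without the libraries numbered 1 (-1.34, 0.00483), without WT CD4 SP replicate 1 (-1.48, 0.0307), with no filter (0.00145), with a term for the libraries numbered 1 (0.00787) and in DESeq2 (0.00962). Cxcr6 was 0.54 ± 0.38 log2 units higher in Thpok-RKF+ than in Thpok-RKF- CD4+CD8+ cells, which did not pass (edgeR, adjusted p = 0.545). Libraries of those groups did not overlap. Relative to Thpok-RKF- CD8 SP cells the difference in Thpok-RKF+ CD4+CD8+ cells was -0.69 ± 0.37 (edgeR, adjusted p = 0.366). It passed without the libraries numbered 1 (-0.89, 0.0222). The library numbered 1 had the lowest Cxcr6 level in 4 of 5 groups.

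Cells with innate features also carry CXCR6. Over the 13 genes of the NKT and innate-like list, summed CPM ran from 733 to 794 in Thpok-RKF+ CD4+CD8+, 524 to 654 in Thpok-RKF- CD4+CD8+, 377 to 460.0 in Thpok-RKF- CD8 SP, 375 to 399 in WT CD4 SP libraries and 871 to 878 in those of WT CD8 SP cells. Of its 9 tested genes, 2 were higher and 4 lower in Thpok-RKF- CD8 SP than in WT CD8 SP cells (18.4% of all genes passed). Against the same WT CD8 SP libraries 1 was higher and 5 lower in Thpok-RKF- CD4+CD8+ cells (12.1%), 2 higher and 1 lower in Thpok-RKF+ CD4+CD8+ cells (11.1%), and 1 higher and 5 lower in WT CD4 SP cells (18.0%). Zbtb16, which encodes the factor PLZF that defines NKT cells, had low counts in all groups. It was at 0, 0.276 and 0 CPM in WT CD8 SP libraries (counts of 0, 11 and 0), and at 0.449, 1.71 and 1.03 CPM in Thpok-RKF- CD8 SP libraries. In WT CD4 SP libraries it was at 1.87, 1.18 and 1.72 CPM. It was at 0.296, 0.108 and 0 CPM in Thpok-RKF+ and 0.061, 1.49 and 1.11 CPM in Thpok-RKF- CD4+CD8+ libraries. The part of innate-like cells in the Cxcr6 levels was not tested. In bulk samples fewer cells of a type and less RNA per cell cannot be told apart, here and in every result below.

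**Figure D2:**
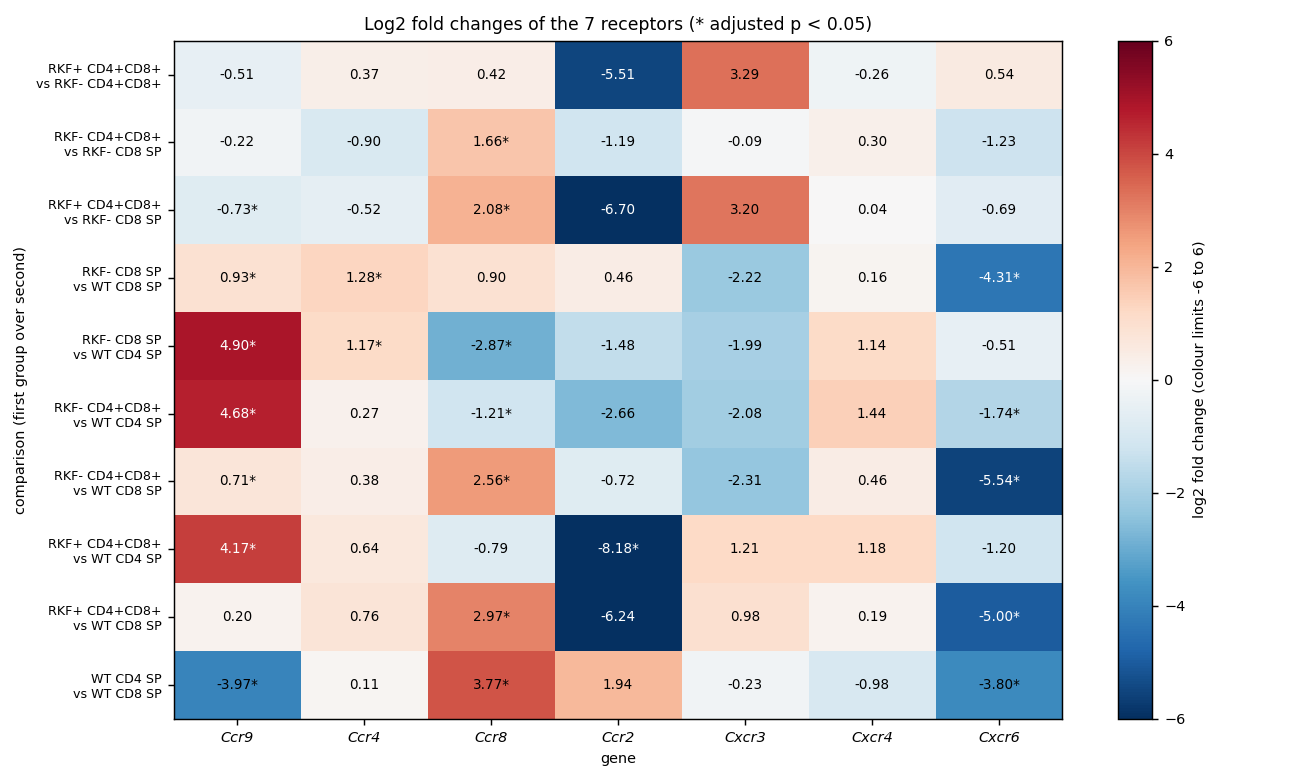
Log2 fold changes of the 7 receptors (columns) in 10 comparisons (rows, first group over second), with colour limits at -6 and 6 and an asterisk where adjusted p is below 0.05 in edgeR. Ccr9 is at 4.17 to 4.90 in each mutant group over WT CD4 SP cells, and Cxcr6 is at -5.54 to -4.31 in each mutant group over WT CD8 SP cells.

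Ccr8, the receptor for CCL1 and a mark of regulatory and helper type 2 cells in the periphery, was highest in WT CD4 SP cells, lower in both CD4+CD8+ mutant groups and lowest in CD8 SP cells of either kind. The libraries held 44.4, 34.4 and 30.2 CPM of it in Thpok-RKF+ CD4+CD8+ libraries, 38.4, 22.2 and 21.1 in Thpok-RKF- CD4+CD8+, 13.6, 5.51 and 6.78 in Thpok-RKF- CD8 SP, 68.8, 54.1 and 66.0 in WT CD4 SP, and 2.05, 5.65 and 6.16 in WT CD8 SP libraries. The 6 CD4+CD8+ libraries lay between the WT CD4 SP libraries and the CD8 SP libraries, without overlap with either.

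Ccr8 was 3.77 ± 0.42 log2 units higher in WT CD4 SP than in WT CD8 SP cells (adjusted p = 2.7e-05), and it fell by 2.87 ± 0.40 in Thpok-RKF- CD8 SP relative to WT CD4 SP cells (adjusted p = 0.000209). Relative to WT CD8 SP cells it rose by 2.97 ± 0.41 in Thpok-RKF+ CD4+CD8+ cells (adjusted p = 0.00025) and by 2.56 ± 0.40 in Thpok-RKF- CD4+CD8+ cells (adjusted p = 0.00079). Without the libraries numbered 1 the second of these was 1.91 (adjusted p = 0.000197). Relative to Thpok-RKF- CD8 SP cells it rose by 2.08 ± 0.39 in Thpok-RKF+ CD4+CD8+ cells (adjusted p = 0.00493).

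The remaining calls of Ccr8 passed with less margin. It averaged 27.2 ± 9.71 CPM in Thpok-RKF- CD4+CD8+ cells and 8.62 ± 4.33 CPM in Thpok-RKF- CD8 SP cells, a rise of 1.66 ± 0.39 (adjusted p = 0.0336). That call was lost with the compared groups alone in the fit (0.0626), and without Thpok-RKF- CD8 SP replicate 2 or 3 (0.168 and 0.174) or Thpok-RKF- CD4+CD8+ replicate 1 or 2 (0.147 and 0.0574). Relative to WT CD4 SP cells it fell by 1.21 ± 0.38 in Thpok-RKF- CD4+CD8+ cells (adjusted p = 0.0403), which was lost without WT CD4 SP replicate 1 or 3 (0.0806 and 0.0872) and without Thpok-RKF- CD4+CD8+ replicate 2 or 3 (0.128 and 0.135). In Thpok-RKF+ CD4+CD8+ cells, at 36.4 ± 7.29 CPM, the difference from WT CD4 SP cells, at 63.0 ± 7.80 CPM, was -0.79 ± 0.38 (adjusted p = 0.249), and without the libraries numbered 1 it passed at -0.89 (adjusted p = 0.0127). Thpok-RKF+ and Thpok-RKF- CD4+CD8+ cells differed by 0.42 ± 0.37 (adjusted p = 0.659), with libraries that overlapped through Thpok-RKF- replicate 1. Without the libraries numbered 1 this difference was 0.58 (edgeR, adjusted p = 0.0572). In Thpok-RKF- CD8 SP relative to WT CD8 SP cells the difference was 0.90 ± 0.39 (adjusted p = 0.138). That passed with no filter on low counts (0.0284), and without the libraries numbered 1 it was 0.082 (0.804).

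Regulatory T cell genes moved in some of the same comparisons. All 14 genes of that list were tested: 11 rose and 1 fell in WT CD4 SP relative to WT CD8 SP cells (18.0% of all genes passed), 11 rose and 0 fell in Thpok-RKF- CD4+CD8+ relative to Thpok-RKF- CD8 SP cells (2.44%), and 11 rose and 1 fell in Thpok-RKF+ CD4+CD8+ relative to Thpok-RKF- CD8 SP cells (5.52%). Relative to WT CD4 SP cells 12 fell in Thpok-RKF- CD8 SP (17.7%) and 4 in Thpok-RKF- CD4+CD8+ cells (17.6%), with 0 rising in either. Relative to WT CD8 SP cells 9 rose and 0 fell in Thpok-RKF- CD4+CD8+ cells (12.1%), and 7 rose and 1 fell in Thpok-RKF+ CD4+CD8+ cells (11.1%). Summed CPM ran from 733 to 1017 in Thpok-RKF+ CD4+CD8+, 739 to 897 in Thpok-RKF- CD4+CD8+, 327 to 423 in Thpok-RKF- CD8 SP, 1026 to 1290 in WT CD4 SP libraries and 336 to 445 in those of WT CD8 SP cells. Foxp3, which defines regulatory T cells, was at 8.57, 8.88 and 8.95 CPM in Thpok-RKF+ CD4+CD8+ libraries and at 50.1, 24.0 and 22.4 CPM in Thpok-RKF- CD4+CD8+ libraries. The summed list overlapped between these groups, and Ccr8 overlapped through Thpok-RKF- replicate 1 (38.4 CPM). Foxp3 was at 2.27, 3.85 and 2.45 CPM in Thpok-RKF- CD8 SP, 31.5, 53.7 and 39.3 in WT CD4 SP, and 1.68, 2.68 and 1.42 in WT CD8 SP libraries. The part of regulatory T cells in the Ccr8 levels was not tested.

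**Figure D3:**
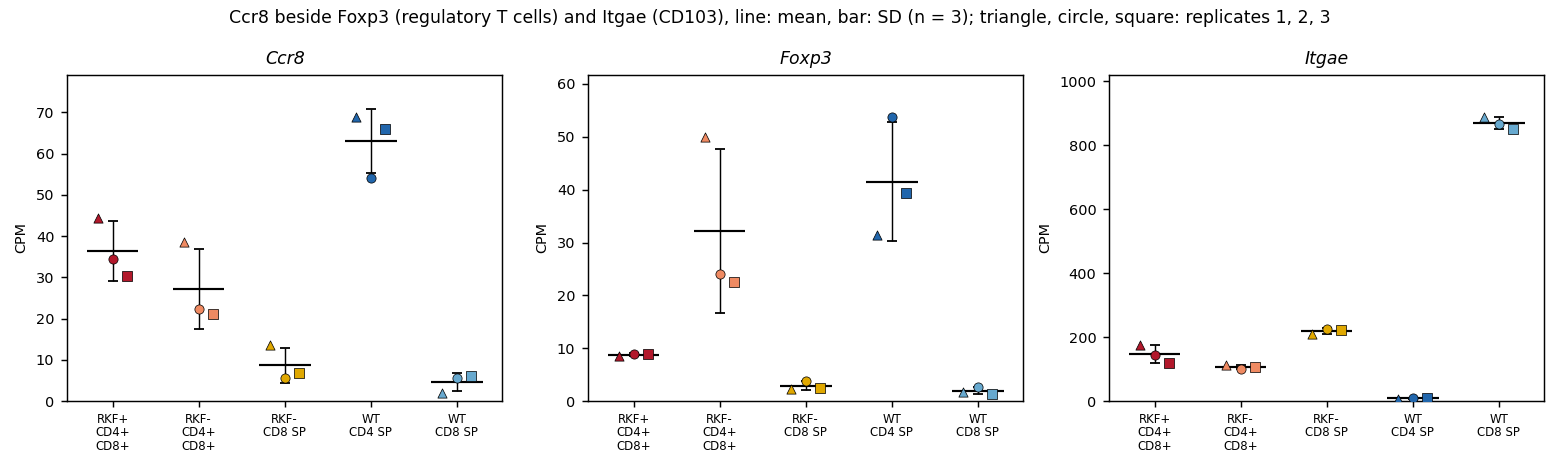
Levels of Ccr8, of Foxp3, which marks regulatory T cells, and of Itgae, which encodes CD103, in each library, in CPM on linear axes from 0. Lines are means, bars SD of 3 libraries and shapes replicates. Ccr8 overlaps between Thpok-RKF+ and Thpok-RKF- CD4+CD8+ libraries through Thpok-RKF- replicate 1 (38.4 CPM). Foxp3 is at 8.57 to 8.95 CPM in Thpok-RKF+ and 22.4 to 50.1 CPM in Thpok-RKF- CD4+CD8+ libraries.

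Ccr4, the receptor for CCL17 and CCL22 that draws newly selected thymocytes to the medulla and marks helper and regulatory cells outside the thymus, had its highest mean in Thpok-RKF- CD8 SP cells. Ccr4 was at 5.37, 7.54 and 6.99 CPM in Thpok-RKF+ CD4+CD8+ libraries, 4.92, 4.92 and 5.51 in Thpok-RKF- CD4+CD8+, 4.96, 13.1 and 10.5 in Thpok-RKF- CD8 SP, 2.72, 5.38 and 4.64 in WT CD4 SP, and 2.37, 5.04 and 4.36 in WT CD8 SP libraries. In Thpok-RKF- CD8 SP cells replicates 2 and 3 lay above all other libraries, and replicate 1 lay within the WT range.

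Ccr4 rose by 1.28 ± 0.37 in Thpok-RKF- CD8 SP relative to WT CD8 SP cells (2.43-fold; adjusted p = 0.0246) and by 1.17 ± 0.37 relative to WT CD4 SP cells (adjusted p = 0.0399). The first was lost without WT CD8 SP replicate 1 or 3 (adjusted p = 0.0871 and 0.0587) or Thpok-RKF- CD8 SP replicate 2 or 3 (0.121 and 0.0721). The second was lost without WT CD4 SP replicate 1 or 3 (0.128 and 0.0977), without Thpok-RKF- CD8 SP replicate 2 or 3 (0.177 and 0.106) and with the compared groups alone in the fit (0.0851). WT CD4 SP cells had a mean of 4.25 ± 1.37 CPM, overlapping the WT CD8 SP cells at 3.92 ± 1.39 CPM (adjusted p = 0.882), and no neighbouring step in the order of its group means passed. In Thpok-RKF- CD4+CD8+ relative to Thpok-RKF- CD8 SP cells its difference of -0.90 ± 0.36 did not pass (adjusted p = 0.341), and without the libraries numbered 1 it passed at -1.17 (adjusted p = 0.0274).

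Cxcr4, the receptor for CXCL12 that acts in early thymocyte development and is lowered as cells mature, passed in 0 of 10 comparisons and varied within groups. Its level was 52.4, 15.4 and 19.1 CPM in Thpok-RKF+ CD4+CD8+ libraries, 47.2, 29.2 and 27.7 in Thpok-RKF- CD4+CD8+, 35.1, 24.4 and 25.1 in Thpok-RKF- CD8 SP, 14.99, 11.4 and 12.1 in WT CD4 SP, and 51.7, 13.4 and 10.9 in WT CD8 SP libraries. The library numbered 1 was the highest in 5 of 5 groups. It stood furthest from replicates 2 and 3 in Thpok-RKF+ CD4+CD8+ and WT CD8 SP cells. In these groups the summed dissociation stress list was lowest in replicate 1, while Jun, a gene of that list, was highest there. Jun was at 19.8, 3.43 and 1.18 CPM in Thpok-RKF+ CD4+CD8+ and 11.3, 7.70 and 8.91 CPM in WT CD8 SP libraries. The part of the libraries numbered 1 in the Cxcr4 result was not tested.

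Among libraries numbered 2 and 3 alone, Cxcr4 in every Thpok-RKF- library lay above both WT groups. With the libraries numbered 1 left out it rose by 1.05 in Thpok-RKF- CD8 SP relative to WT CD8 SP cells (edgeR, adjusted p = 0.00312), by 1.07 relative to WT CD4 SP cells (0.00323), and in Thpok-RKF- CD4+CD8+ by 1.26 relative to WT CD8 SP (0.00203) and by 1.28 relative to WT CD4 SP cells (0.00184). In the same fit it fell by 0.72 in Thpok-RKF+ relative to Thpok-RKF- CD4+CD8+ cells (adjusted p = 0.0319). With all libraries its largest difference was 1.44 ± 0.54 in Thpok-RKF- CD4+CD8+ relative to WT CD4 SP cells (adjusted p = 0.0781), where the libraries of the groups did not overlap. With all libraries kept this passed with no filter on low counts (0.00375), with a term for the libraries numbered 1 (0.00639) and with the compared groups alone in the fit (0.00711). The difference of 1.14 ± 0.53 in Thpok-RKF- CD8 SP relative to WT CD4 SP cells (adjusted p = 0.159) also passed under these settings (0.024, 0.0179 and 0.00826). In Thpok-RKF+ CD4+CD8+ relative to WT CD4 SP cells 1.18 ± 0.53 (adjusted p = 0.227) passed with no filter (0.039). In WT CD4 SP relative to WT CD8 SP cells it was -0.98 ± 0.53 (adjusted p = 0.236), and 0.078 without WT CD8 SP replicate 1 (adjusted p = 0.948).

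Cxcr3, the receptor for interferon-induced chemokines on type 1 helper and effector CD8 cells, was low in all groups, and its counts were 185, 318 and 150 in Thpok-RKF+ CD4+CD8+ libraries, 17, 16 and 34 in Thpok-RKF- CD4+CD8+, 4, 52 and 15 in Thpok-RKF- CD8 SP, 0, 126 and 156 in WT CD4 SP, and 69, 132 and 90 in WT CD8 SP libraries. In CPM the Thpok-RKF+ libraries held 3.91, 6.87 and 3.55, against 0.346, 0.355 and 0.755 in Thpok-RKF- CD4+CD8+ libraries. All 3 Thpok-RKF+ libraries lay above all 6 Thpok-RKF- libraries. WT CD4 SP replicate 1 had 0 counts, and a count of 0 allows up to 0.0685 CPM there.

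Thpok-RKF+ exceeded Thpok-RKF- CD4+CD8+ cells by 3.29 ± 1.13 log2 units, the largest positive difference among the 7 receptors in that comparison, which did not pass (edgeR, adjusted p = 0.206). It passed under 5 other settings: with no filter on low counts (0.0291), without the libraries numbered 1 (3.22, 0.0189), with the compared groups alone in the fit (0.0462), in DESeq2 (0.0387) and in limma on log2 of CPM plus 1 (1.90, 0.0386). Against Thpok-RKF- CD8 SP cells it was 3.20 ± 1.12 (adjusted p = 0.133). That passed without the libraries numbered 1 (2.84, 0.0227), in DESeq2 (0.0257), in limma (0.0127) and with no filter (0.0166). Both Thpok-RKF- groups had levels below WT CD8 SP libraries without overlap, with differences of -2.31 ± 1.10 in CD4+CD8+ and -2.22 ± 1.09 in CD8 SP cells that did not pass (adjusted p = 0.205 and 0.192). The CD4+CD8+ one passed without the libraries numbered 1 (-2.25, 0.0475) and with the compared groups alone in the fit (-2.30, 0.0145). Without WT CD4 SP replicate 1, where Cxcr3 was not counted, differences from WT CD4 SP cells passed at -2.67 in Thpok-RKF- CD4+CD8+ (0.0278) and -2.58 in Thpok-RKF- CD8 SP cells (0.027).

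Ccr2, the receptor for CCL2 on monocytes and some memory T cells, was close to the limit of counting. Its counts were 0, 1 and 0 in Thpok-RKF+ CD4+CD8+ libraries, 20, 44 and 0 in Thpok-RKF- CD4+CD8+, 22, 58 and 63 in Thpok-RKF- CD8 SP, 0, 128 and 269 in WT CD4 SP, and 20, 30 and 43 in WT CD8 SP libraries. A count of 0 allows up to 0.0634 and 0.071 CPM in Thpok-RKF+ replicates 1 and 3. The Thpok-RKF+ libraries lay below all CD8 SP libraries of both kinds and overlapped the other 2 groups, each of which held 1 library at 0.

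Over each group, 1 count in Thpok-RKF+ CD4+CD8+ libraries stood against 397 in WT CD4 SP libraries, 397-fold lower with a 95% counting interval of 70.8 to 15717, which covers counting error only. That was the single call of Ccr2 in edgeR under the main settings (adjusted p = 0.0211). It was lost with the compared groups alone in the fit (0.0893), in limma (0.0586), without WT CD4 SP replicate 3 (0.0627) and without Thpok-RKF+ replicate 1, 2 or 3 (0.0767, 0.0534 and 0.0812). Against Thpok-RKF- CD4+CD8+ cells the ratio was 62.4-fold lower (10.8 to 2503; adjusted p = 0.216), against Thpok-RKF- CD8 SP cells 143-fold lower (25.3 to 5693; adjusted p = 0.0618) and against WT CD8 SP cells 105-fold lower (18.4 to 4189; adjusted p = 0.0538). In DESeq2 these 3 passed (0.0352, 0.00224 and 0.00368), and in edgeR with no filter on low counts as well (0.0324, 0.00172 and 0.00239). Those against CD8 SP cells also passed with a term for the libraries numbered 1 (0.0452 and 0.0374). With the compared groups alone in the fit they passed too (0.0185 and 0.0129). Without the libraries numbered 1 the one against Thpok-RKF- CD8 SP cells passed (0.0454).

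Myeloid cells also carry CCR2. Over the 14 genes of the myeloid list, summed CPM was 46.0 in Thpok-RKF+ replicate 1 and 35.0 in WT CD4 SP replicate 1, and between 2.95 and 8.93 in the other 13 libraries. Lyz2, a macrophage lysozyme gene, held 24.5 and 28.4 CPM of these sums. Ccr2 was counted 0 times in both of those libraries.

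The difference between CD4-expressing and CD8 SP cells was itself compared between mutant and WT cells, as Thpok-RKF- CD4+CD8+ minus Thpok-RKF- CD8 SP, less WT CD4 SP minus WT CD8 SP. In this test 3 of 7 receptors passed, where 14.3% of all genes did. For Ccr9 the mutant difference was -0.22 ± 0.19 and the WT difference -3.97 ± 0.21, which left 3.76 ± 0.28 (edgeR, adjusted p = 8.1e-07). For Cxcr6 they were -1.23 ± 0.38 and -3.80 ± 0.40, which left 2.57 ± 0.53 (adjusted p = 0.00448). For Ccr8 they were 1.66 ± 0.39 and 3.77 ± 0.42, which left -2.10 ± 0.54 (adjusted p = 0.0189), and this was lost without Thpok-RKF- CD4+CD8+ replicate 3 (adjusted p = 0.051). In all 3 genes the mutant difference was the smaller one. Ccr4 did not pass (-1.01 ± 0.51, adjusted p = 0.223), but did so without the libraries numbered 1 (-1.30, 0.0276).

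Of the receptor genes, 5 lie on chromosome 9, and Ccr9, Cxcr6 and Ccr2 lie close together there. In RefSeq order the stretch runs Slc6a20a, Lztfl1, Ccr9, Fyco1, Cxcr6, Xcr1, Ccr1, Ccr1l1, Ccr3 and Ccr2. Lztfl1, which encodes a ciliary trafficking protein and neighbours Ccr9, rose as well in Thpok-RKF- CD8 SP relative to WT CD8 SP cells (1.04 ± 0.15, adjusted p = 0.00015) and to WT CD4 SP cells (1.44 ± 0.15). In WT CD4 SP relative to WT CD8 SP cells Lztfl1 was -0.40 ± 0.15 and did not pass (adjusted p = 0.0769), where Ccr9 was -3.97. In Thpok-RKF+ relative to Thpok-RKF- CD4+CD8+ cells Lztfl1 was 0.51 ± 0.14 (adjusted p = 0.128) and Ccr9 -0.51, and neither passed. Fyco1, between Ccr9 and Cxcr6, was -0.28 ± 0.20 in Thpok-RKF- CD8 SP relative to WT CD8 SP cells and did not pass (adjusted p = 0.395). Xcr1, the receptor for XCL1 next to Cxcr6, fell in WT CD4 SP relative to WT CD8 SP cells (-3.37 ± 0.98, adjusted p = 0.0278), at 0.503, 0.166 and 0.137 CPM in CD4 SP and 2.53, 2.06 and 3.80 CPM in CD8 SP libraries.

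**Figure D4:**
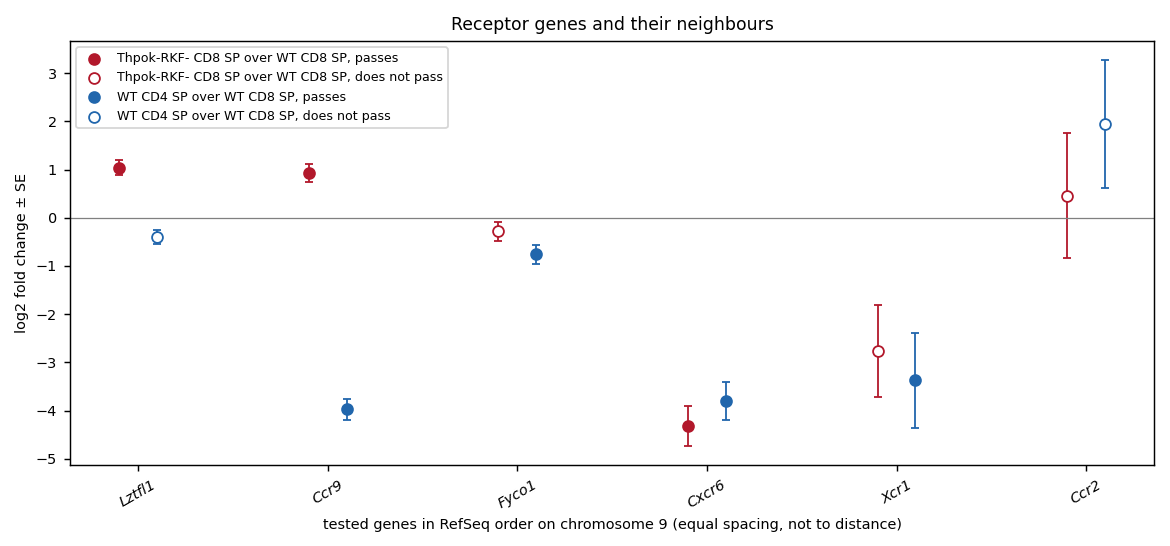
Log2 fold changes with SE for the genes between Lztfl1 and Ccr2, both included, that passed the low-count filter, in RefSeq order at equal spacing, in Thpok-RKF- CD8 SP over WT CD8 SP cells (red) and WT CD4 SP over WT CD8 SP cells (blue). Filled points pass and open points do not. Ccr9 is at 0.93 in red and -3.97 in blue, and Cxcr6 at -4.31 in red and -3.80 in blue.

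Of 16 other chemokine receptor genes 10 were tested. Between WT groups 4 passed (18.0% of all genes did), of which 3 are described. Ccr7, which brings mature T cells to medulla and lymph node, rose by 0.36 ± 0.11 in WT CD4 SP cells (adjusted p = 0.0363), at 1695 CPM on average against 1316 in WT CD8 SP cells. Ccr10, a skin-homing receptor, rose by 4.24 ± 1.24 (adjusted p = 0.0326), and Xcr1 fell. In Thpok-RKF+ relative to Thpok-RKF- CD4+CD8+ cells edgeR called 0 of these 10, with 1 at an unadjusted p below 0.05, 1 in DESeq2 and 0 in limma. In Thpok-RKF- CD8 SP relative to WT CD8 SP cells edgeR also called 0, with 2 at an unadjusted p below 0.05, 1 in DESeq2 and 3 in limma.

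Downstream of the receptors, 26 of 28 genes of G protein signalling, receptor kinases, arrestins and regulators were tested. In Thpok-RKF- CD8 SP relative to WT CD8 SP cells 7 rose and 11 fell (7.78% and 10.6% of all genes did), and the median log2 fold change of the 26 was -0.14, beside 2.54e-05 over all genes tested. Rgs3, which shortens G protein signals, fell by 1.55 ± 0.18, Elmo1, a partner of the migration factor Dock2, fell by 0.92 ± 0.12, and Pik3cg, the catalytic subunit of the lipid kinase used by these receptors, fell by 0.91 ± 0.14. In Thpok-RKF- CD4+CD8+ relative to Thpok-RKF- CD8 SP cells 4 rose and 1 fell (2.44% of all genes passed), among them Rgs16 (4.90 ± 0.80), another regulator of G protein signals, and Rgs10 (1.06 ± 0.20). In Thpok-RKF+ relative to Thpok-RKF- CD4+CD8+ cells edgeR called 0 of 26, with 10 at an unadjusted p below 0.05, 1 in DESeq2 and 0 in limma.

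Of 16 other guidance and adhesion genes 14 were tested. Itgae, the alpha chain of the CD103 integrin that binds epithelial E-cadherin, was at 146 CPM on average in Thpok-RKF+ CD4+CD8+, 106 in Thpok-RKF- CD4+CD8+, 219 in Thpok-RKF- CD8 SP, 8.43 in WT CD4 SP cells and 868 in their CD8 SP counterparts. It fell by 1.99 ± 0.16 in Thpok-RKF- CD8 SP relative to WT CD8 SP cells (adjusted p = 1.05e-06) and rose by 4.70 ± 0.18 relative to WT CD4 SP cells (adjusted p = 9.44e-10). Klf2, a factor that drives egress receptors, fell by 1.34 ± 0.12 in Thpok-RKF- CD8 SP relative to WT CD8 SP cells. S1pr1, the receptor for sphingosine 1-phosphate through which cells leave the thymus, fell by 0.88 ± 0.13 relative to WT CD4 SP cells. Its levels of 837, 670 and 661 CPM in Thpok-RKF- CD8 SP libraries overlapped those of WT CD8 SP libraries (686, 852 and 853 CPM). Gpr183, an oxysterol receptor, was the 1 gene of the list to pass in Thpok-RKF+ relative to Thpok-RKF- CD4+CD8+ cells (0.961% of all genes did), rising by 0.82 ± 0.15 (adjusted p = 0.0171), and it was 2.33 ± 0.16 log2 units higher in WT CD4 SP than in WT CD8 SP cells. In Thpok-RKF- CD8 SP relative to WT CD8 SP cells 1 gene of the list rose and 5 fell (7.78% and 10.6% of all genes), and in WT CD4 SP relative to WT CD8 SP cells 3 rose and 6 fell (7.72% and 10.3%).

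Genes with a profile like each receptor were sought among 9592 genes by the root mean square difference of log2 levels over the 15 libraries, each centred on its own mean. Nearest to Ccr9 were Tlr12 (0.55), Kcna2 (0.57) and Runx3 (0.61), where Ccr9 itself varied by 1.81 about its mean. Nearest to Ccr8 were Tbc1d30 (0.60), Mapk11 (0.73) and Chchd10 (0.77), beside its own 1.51. Nearest to Cxcr6 were Sytl3 (0.74), Angptl4 (0.96) and Paqr4 (0.98), beside 2.00. Nearest to Ccr4 were Zscan2 (0.35), Poc1b (0.37) and Egln1 (0.37), beside 0.60, and the nearest to Ccr2, Dna2 (1.69), Tbc1d32 (1.78) and Mgmt (1.83), came little closer than its own 2.33. The libraries of a group share its condition, so likeness is a description.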

How the data were processed

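RNA from 15 sorted thymocyte libraries had been extracted with a column kit, amplified with a low-input SMARTer kit and sequenced as paired reads, per the labels' protocols. bcl2fastq 2.17, Trimmomatic, STAR, HTSeq, DESeq2 and build mm39 are named, with no role or order, in the submitters' processing notes; the annotation and the strand setting of the counting are not named there, in the labels or in the files. The deposited tables hold read counts per gene and the same values as CPM, which the authors deposited beside them and which gave whole reads for 100% of values when scaled back (tolerance 0.01). Columns that match no sample, 3 in each of them, were not used. Summary lines of the counter (15.9% to 21.0% of a library) entered neither library sizes nor tests.

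Counts were filtered with edgeR's filterByExpr (minimum count 10, minimum total 15), scaled by TMM and fitted in 1 model of 5 group means with edgeR 4.0.16 (quasi-likelihood F test) in R 4.3.3, with Benjamini-Hochberg adjustment over all 16550 tested genes in each comparison. CPM in the text uses TMM-scaled sizes. Standard errors come from the log2 fold change and its F value. As alternatives, limma 3.58.1 was run on log2 of the deposited CPM plus 1, which carries no TMM factors. DESeq2 1.42.0 and other settings were run as well. The test was tried on simulated counts. Gene totals of 37311823 to 48607260 counts set the precision: a count of 0 allows up to 3 counts, and intervals at 95% and such limits cover counting error only.

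The receptors and gene lists were chosen with earlier results of these data known. Named genes are the 7 receptors, up to 4 genes of each list by smallest adjusted p in a comparison, the nearest profiles of each called receptor, and neighbours of Ccr9 and Cxcr6. Neighbour order, promoters and exon overlaps come from tables and annotation of GRCm38, another build than the files'. The coordinates printed with the promoter sequences are of that build, and no measurement was placed by them. Some genes of the lists and of the neighbourhood are not reported here.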

Additional observations from a re-analysis of the deposited data

Results flagged for a closer look

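The difference between CD4-expressing and CD8 SP cells itself differed between mutant and WT thymocytes for 3 receptors, which is what marks them here. For Ccr9 the mutant difference (Thpok-RKF- CD4+CD8+ minus Thpok-RKF- CD8 SP) was -0.22 log2 units and the WT difference (CD4 SP minus CD8 SP) -3.97. That left 3.76 (edgeR, adjusted p = 8.1e-07). For Cxcr6 they were -1.23 and -3.80, which left 2.57 (adjusted p = 0.00448). For Ccr8 they were 1.66 and 3.77, which left -2.10 (adjusted p = 0.0189). In size the mutant difference was the smaller one for each. Mutant and WT CD4-expressing cells came from the same kind of host and WT CD8 SP cells from another, so genotype and host cannot be told apart in these values.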

How the results depend on the processing

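Over 62 fold changes of the receptors larger than their standard error and 966 alternatives, 869 kept direction and side of the threshold, 57 became calls, 37 lost the call and 3 changed sign. The 3 sign changes were of differences that had not passed: Ccr9 in Thpok-RKF+ CD4+CD8+ against WT CD8 SP cells, 0.20 with all libraries, was -0.042 without the libraries numbered 1 and ran from -0.13 to 0.37 with 1 library left out, and Cxcr4 in WT CD4 SP against WT CD8 SP cells, -0.98 with all libraries, ran from -1.35 to 0.078. The cause was not tested.

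The comparison of CD4+CD8+ cells with and without Thpok-RKF depended most on the setting. Its 159 called genes became 428 with no filter on low counts, 1741 without the libraries numbered 1, 350 with a term for them, 48 with the compared groups alone, 99 at 2-fold or more, 287 in limma and 676 in DESeq2, and 48 to 1673 with 1 library left out. Its 0 called receptors became 2 with no filter, 3 without the libraries numbered 1, 1 with the groups alone, 1 in limma and 2 in DESeq2, and 0 to 1 with 1 library left out.

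Thpok-RKF- CD4+CD8+ against Thpok-RKF- CD8 SP cells had 403 called genes, 266 at 2-fold or more, 782 in DESeq2 and 230 to 324 with 1 library left out. Its 1 receptor became 2 with no filter, 2 with the replicate block, 3 without the libraries numbered 1, 2 with a term for them, 0 with the groups alone, 2 in DESeq2 and 0 to 2 with 1 library left out. Thpok-RKF+ CD4+CD8+ against Thpok-RKF- CD8 SP cells had 913 called genes, 2102 without the libraries numbered 1, 447 with the groups alone, 499 at 2-fold or more, 1523 in DESeq2 and 504 to 1766 with 1 library left out. Its 2 receptors became 4 with no filter, 5 without the libraries numbered 1, 1 at 2-fold or more, 4 in DESeq2 and 1 to 2 with 1 library left out.

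At 2-fold or more the called genes of the remaining comparisons numbered 1441 of 3045 in Thpok-RKF- CD8 SP against WT CD8 SP, 1374 of 2922 in Thpok-RKF- CD8 SP against WT CD4 SP, 1153 of 2908 in Thpok-RKF- CD4+CD8+ against WT CD4 SP, 968 of 2010 in Thpok-RKF- CD4+CD8+ against WT CD8 SP, 696 of 1202 in Thpok-RKF+ CD4+CD8+ against WT CD4 SP, 974 of 1835 in Thpok-RKF+ CD4+CD8+ against WT CD8 SP, 1397 of 2981 in WT CD4 SP relative to WT CD8 SP and 1522 of 2360 for the difference of differences. With 1 library left out, Thpok-RKF- CD8 SP against WT CD4 SP kept 1673 to 2743 called genes, Thpok-RKF- CD4+CD8+ against WT CD4 SP 1530 to 2697, Thpok-RKF- CD4+CD8+ against WT CD8 SP 1183 to 1948 and Thpok-RKF+ CD4+CD8+ against WT CD8 SP 1130 to 2248. Without the libraries numbered 1 the 3 receptors called in each of the first 3 of these became 5.

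Thpok-RKF+ CD4+CD8+ against WT CD4 SP cells had 524 called genes with the groups alone and 1946 in DESeq2. Its 2 receptors became 4 with no filter, 4 without the libraries numbered 1, 1 with the groups alone, 1 in limma and 1 to 3 with 1 library left out. Against WT CD8 SP cells its 2 receptors became 4 with a term for the libraries numbered 1.

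Replicate numbers are shared between groups in the labels, which do not say what they stand for. Same-numbered libraries of different groups had deviations that correlated at -0.0138 to 0.221 for number 1, -0.0500 to 0.0509 for number 2 and 0.00861 to 0.0961 for number 3. Given these correlations, the numbers were not used as pairs in the tests given above. What the libraries numbered 1 share, in which Cxcr4 was highest in 5 of 5 groups, is not stated. With the replicate block CD4+CD8+ cells with Thpok-RKF gave, against those without it, 236 called genes and 0 receptors. The block turned 4 of the receptor differences considered into calls: Cxcr6 in Thpok-RKF- CD4+CD8+ against Thpok-RKF- CD8 SP (-1.11, adjusted p = 0.0248) and in Thpok-RKF+ CD4+CD8+ against WT CD4 SP cells (-1.12, 0.00999), and Cxcr4 in Thpok-RKF- CD8 SP (1.12, 0.0257) and Thpok-RKF- CD4+CD8+ (1.38, 0.0102) against WT CD4 SP cells. A count of 0 allows 0.0634 to 0.071 CPM of Ccr2 or Cxcr3, so lower levels were not detectable at this depth.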
